A study of Mus musculus with 8 samples.

Results

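The 35 genes described here encode the enzymes of the tricarboxylic acid (TCA) cycle and of the reactions that feed and drain it: pyruvate dehydrogenase with its kinases and phosphatase, pyruvate carboxylase, the malic enzymes, the aspartate transaminases, and the enzymes of glutamate and glutamine. Their probes were taken by gene name on the array, and the list of genes was chosen with earlier results of these data known. All 35 were measured, out of 21742 genes tested. Expression was compared between brown adipose tissue of Prdm16 knockout mice and of wild-type mice at 11 months and at 6 weeks of age. On each of the 8 Agilent 2-colour arrays, 1 knockout sample was set against 1 wild-type sample of its age, with 4 arrays for each age and the dyes exchanged on 2 of the 4. The labels call the arrays biological replicates and say that the ages were run as separate batches, so age and batch cannot be told apart. The sources used here do not give how the knockout was made, or the strain and sex of the mice.

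In the TCA cycle, acetyl-CoA from pyruvate, fatty acids or amino acids is joined to oxaloacetate and oxidised in a ring of mitochondrial reactions that yield NADH and succinate-linked electrons for the respiratory chain. Pyruvate enters as acetyl-CoA through pyruvate dehydrogenase, which its kinases switch off and its phosphatases switch on, or as oxaloacetate through pyruvate carboxylase, an anaplerotic (refilling) step. Brown fat is rich in mitochondria and burns fuel for heat through uncoupling protein 1 (Ucp1). Prdm16 encodes a transcriptional co-regulator that helps to set and keep brown adipocyte identity.

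All values are log2 ratios with knockout on top, so that -1 means that the knockout signal was 2-fold lower. They are given for arrays 1 to 4 of an age in that order, and where single arrays are named, older stands for 11 months and younger for 6 weeks. Fitted values carry the standard error (SE) of 1 limma model over all 8 arrays (n = 4 arrays per age), and a gene was called higher or lower at an adjusted p below 0.05 (Benjamini-Hochberg over all genes). The number of arrays limits the precision. In each channel 61.2% to 68.2% of spots were well above background, and none was saturated. Each of the 35 genes was measured on every array. The Prdm16 probe itself had log2 ratios of -0.96, -0.18, -0.44 and -0.42 at 11 months, against -0.39, 0.06, -1.09 and -0.88 at 6 weeks, so younger array 2 was not lower. Prdm16 was called lower at 11 months (-0.50 ± 0.15, adjusted p = 0.0372) and at 6 weeks (-0.58 ± 0.15, adjusted p = 0.042), calls that ended in 8 and 11 of 21 alternative settings (adjusted p up to 0.349 and 0.238). The sources used here do not give where it lies relative to the deleted part.

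The probes of the genes with the highest and the lowest fitted value at 11 months (Pcx and Me3), and those of Ogdh, whose probes disagreed, have these sequences, read 5′ to 3′ from the array files. Capitals mark bases in runs of 15 or more that a probe shares, on either strand, with probes of other genes among the 39429 probes searched.
Pcx probe A_55_P2008599: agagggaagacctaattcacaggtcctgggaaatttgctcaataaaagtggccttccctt
Me3 probe A_55_P1953919: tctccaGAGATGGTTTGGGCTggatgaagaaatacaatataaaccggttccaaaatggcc
Me3 probe A_55_P1953920: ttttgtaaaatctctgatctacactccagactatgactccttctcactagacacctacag
Ogdh probe A_55_P2006280: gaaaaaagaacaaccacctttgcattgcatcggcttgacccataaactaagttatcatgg
Ogdh probe A_55_P2006281: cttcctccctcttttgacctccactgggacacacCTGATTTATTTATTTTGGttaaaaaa
Ogdh probe A_55_P2006277: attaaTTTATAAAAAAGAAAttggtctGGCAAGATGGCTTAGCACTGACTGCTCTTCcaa
The array annotation (mouse build mm9, plus strand) places the Pcx probe at chr19:4621610-4621669 and the Me3 probes at chr7:97000413-97000472 and chr7:97000311-97000370. It places the Ogdh probes at chr11:6256583-6256642, chr11:6256511-6256570 and chr11:6258910-6258969, in the order printed. It does not say in which exon a probe lies. The Ogdh probe A_55_P2006277 shared such runs with 5 probes of other genes over 45 of its 60 bases, the probe A_55_P2006281 with 2 over 18 bases, and the probe A_55_P2006280 with 0.

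At 11 months the knockout tissue had lower signals for most of these genes. Of the 35, 25 were called lower, against 16.8% of all genes, and 3 were called higher (Pcx, Pdk3 and Me2), against 17.9% of all genes. Their median log2 ratio was -0.95, while that of all genes was 0.01. At 6 weeks 5 were called lower (Idh3b, Suclg2, Sdhb, Fh1 and Me3), against 7.01% of all genes, and 4 higher (Pcx, Pdhx, Pdk1 and Idh1), against 9.18%. The median of the 35 was then -0.28, and that of all genes 0.00. For the difference between the ages (11 months minus 6 weeks), 25 of the 35 were lower, against 9.71% of all genes, and 2 were higher (Pcx and Pdk3), against 8.46%. With array ratios centred on the median in place of the intensity-dependent loess normalization, 22 members were called at 11 months (19 lower, 3 higher), 2 at 6 weeks (1 lower, 1 higher) and 3 for the difference (Idh3a, Sucla2 and Sdhd, lower), so the calls at 6 weeks and for the difference depend on that normalization. Median centring ended 6 of the 28 calls at 11 months (Got1, Idh2, Mdh1, Pdhx, Pdk2 and Suclg2) and 7 of the 9 at 6 weeks (all but Pcx and Me3). The scanner software's log ratio also ended 7 of those 9 (all but Pcx and Pdhx), and the fit with no dye coefficient ended 2 of them (Idh1 and Sdhb) and 7 of the 27 for the difference (Cs, Mdh2, Sdhb, Sdhc, Pdha1, Pdhb and Dlat).

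**Figure D1:**
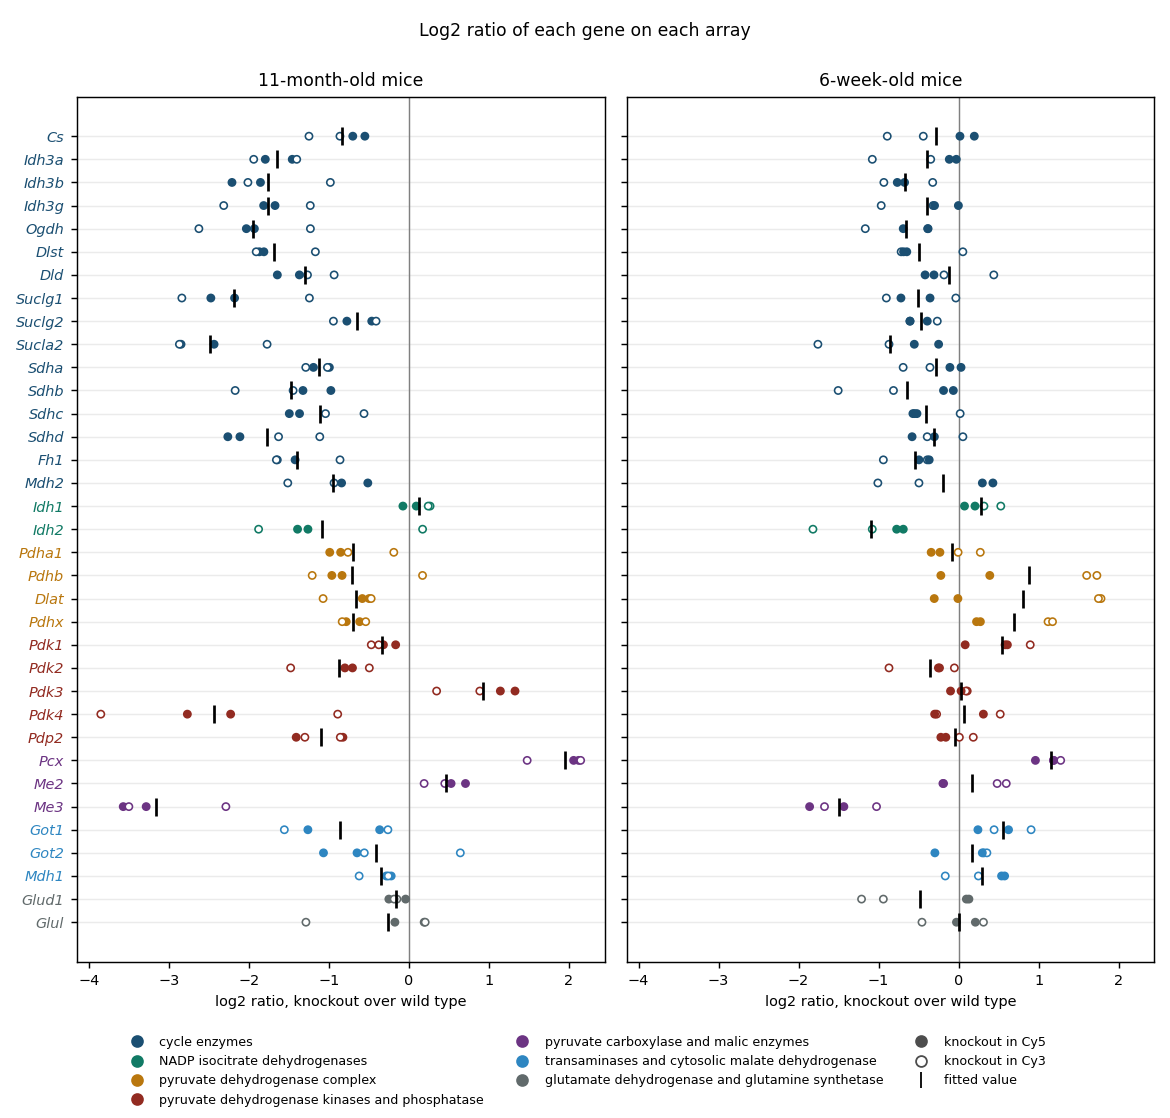
Log2 ratio of knockout over wild type (x axis) for each of the 35 genes (y axis, coloured by role), with 11-month-old arrays on the left and 6-week-old arrays on the right. Points are single arrays (filled, knockout in Cy5; open, knockout in Cy3) and bars the fitted values; the 16 cycle enzymes lie below 0 on all 4 arrays at 11 months, Pcx above 0 on all 8 arrays and Me3 below 0 on all 8.

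All 16 cycle enzymes fell at 11 months, with fitted values between -2.48 (Sucla2) and -0.65 (Suclg2) and a median of -1.56. Each was below 0 on all 4 arrays, as were 25.3% of all genes. At 6 weeks all 16 fitted values were again below 0, with a median of -0.44, but 4 were called lower, against 7.01% of all genes. On all 4 arrays of that age 9 were below 0, against 16.5% of all genes. For the difference between ages, 15 of the 16 were called lower, against 9.71% of all genes, with a median of -1.14. Suclg2 was the exception. In 10 of the 16 every 11-month-old array lay below every 6-week-old array, against 10.5% of all genes. Among all 35 genes this held for 18, and every 11-month-old array lay above every 6-week-old array for 2 (Pcx and Pdk3), against 8.99% of all genes.

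The first step of the cycle is citrate synthase (Cs), which joins acetyl-CoA to oxaloacetate. Cs had log2 ratios of -0.55, -0.70, -1.25 and -0.86 at 11 months, against -0.89, -0.44, 0.02 and 0.19 at 6 weeks. The ages overlapped, and the fitted fall of 0.84 ± 0.10 at 11 months (adjusted p = 0.000687) was among the smaller ones of the cycle. The array values are not corrected for dye, and the limma dye coefficient of Cs was 0.30 (adjusted p = 0.0571). At 6 weeks the fitted value of Cs was -0.28 ± 0.10 (adjusted p = 0.101).

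Isocitrate is oxidised by the NAD-dependent isocitrate dehydrogenase, built from the catalytic subunit Idh3a and the subunits Idh3b and Idh3g. Idh3a had ratios of -1.46, -1.79, -1.94 and -1.40 at 11 months, against -1.08, -0.35, -0.03 and -0.12 at 6 weeks. Idh3b had -1.86, -2.21, -2.01 and -0.98 at 11 months, against -0.94, -0.33, -0.77 and -0.68 at 6 weeks. Idh3g had -1.67, -1.82, -2.31 and -1.23 at 11 months, against -0.97, -0.32, -0.30 and 0.00 at 6 weeks. For all 3 subunits every older array was lower than every 6-week-old array. The fitted values at 11 months lay close together, at -1.65 ± 0.15 for Idh3a, -1.77 ± 0.18 for Idh3b and -1.76 ± 0.18 for Idh3g (adjusted p = 0.000196, 0.000271 and 0.000322 in limma). At 6 weeks Idh3b was called lower (-0.68 ± 0.18, adjusted p = 0.0382), a call that ended without any 1 younger array or without older array 1 or 2 (adjusted p = 0.0545 to 0.169).

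The 2-oxoglutarate dehydrogenase complex, which makes succinyl-CoA, consists of Ogdh, Dlst and Dld, and Dld also serves in the pyruvate dehydrogenase complex. Ogdh had ratios of -1.93, -2.03, -2.62 and -1.23 at 11 months, against -1.17, -0.39, -0.69 and -0.38 at 6 weeks. Dlst had -1.81, -1.87, -1.91 and -1.17 at 11 months, against -0.72, 0.05, -0.69 and -0.65 at 6 weeks. Dld had -1.37, -1.64, -1.27 and -0.94 at 11 months, against -0.18, 0.44, -0.42 and -0.31 at 6 weeks. In each of the 3 genes the smallest fall at 11 months was on array 4, and the ages did not overlap. The fitted falls at 11 months were 1.95 ± 0.22 for Ogdh (3.88-fold), 1.69 ± 0.14 for Dlst (3.23-fold) and 1.30 ± 0.11 for Dld (2.47-fold). The value for Ogdh comes from its brightest probe, A_55_P2006280. The second probe, A_55_P2006281, gave -1.80 ± 0.21 at 11 months, but A_55_P2006277 gave 0.55 ± 0.10 (adjusted p = 0.00476), the opposite direction. It is the one with most runs shared with probes of other genes.

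Succinyl-CoA ligase, which turns succinyl-CoA into succinate, pairs the shared subunit Suclg1 with Sucla2 (the ATP-forming enzyme) or Suclg2 (the GTP-forming enzyme). Suclg1 had ratios of -2.18, -2.48, -2.84 and -1.24 at 11 months, against -0.90, -0.04, -0.72 and -0.36 at 6 weeks. Sucla2 had -2.43, -2.85, -2.87 and -1.77 at 11 months, against -1.76, -0.87, -0.56 and -0.25 at 6 weeks. Suclg2 had -0.47, -0.78, -0.94 and -0.41 at 11 months, against -0.61, -0.27, -0.39 and -0.61 at 6 weeks. Sucla2 and Suclg1 thus had the largest falls among the cycle enzymes at 11 months. Sucla2 fell by 2.48 ± 0.25 (5.58-fold, adjusted p = 0.000297) and Suclg1 by 2.18 ± 0.24 (4.54-fold, adjusted p = 0.000465). Suclg2 had the smallest, at 0.65 ± 0.11 (1.57-fold, adjusted p = 0.00254), and it was called lower at 6 weeks by nearly as much, 0.47 ± 0.11 (adjusted p = 0.0245). Its ages overlapped, and the difference between them was -0.18 ± 0.15 (adjusted p = 0.441). The 6-week call of Suclg2 ended without younger array 1, 3 or 4 (adjusted p = 0.0679 to 0.113), and median centring ended its call at 11 months (adjusted p = 0.136).

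Succinate dehydrogenase, which is also complex II of the respiratory chain, consists of Sdha, Sdhb and the membrane subunits Sdhc and Sdhd. Sdha had ratios of -0.99, -1.19, -1.29 and -1.02 at 11 months, against -0.69, -0.36, -0.11 and 0.03 at 6 weeks. Sdhb had -0.98, -1.32, -2.17 and -1.45 at 11 months, against -1.51, -0.82, -0.19 and -0.07 at 6 weeks. The array values of Sdha did not overlap between the ages, while those of Sdhb did, since younger array 1 lay below 3 of the 11-month-old arrays. These array values are not corrected for dye, and the limma dye coefficient of Sdhb was 0.42 (adjusted p = 0.0646). Sdhc had -1.37, -1.50, -1.04 and -0.56 at 11 months, against -0.55, 0.02, -0.57 and -0.52 at 6 weeks. Sdhd had -2.11, -2.26, -1.63 and -1.11 at 11 months, against -0.39, 0.05, -0.58 and -0.30 at 6 weeks. For Sdhc the ages overlapped, and for Sdhd they did not. The 4 subunits fell by 1.12 ± 0.09, 1.48 ± 0.15, 1.12 ± 0.12 and 1.78 ± 0.13 at 11 months, in the order given. Sdhd had the difference between ages that held in all 21 alternatives, -1.47 ± 0.18 (adjusted p = 0.00289), and no other called difference did. Sdhb was called lower at 6 weeks (-0.64 ± 0.15, adjusted p = 0.0277), a call that ended without any 1 younger array (adjusted p = 0.0547 to 0.112).

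Fumarase (Fh1) and mitochondrial malate dehydrogenase (Mdh2) close the ring. Fh1 had ratios of -1.42, -1.64, -1.66 and -0.86 at 11 months, against -0.94, -0.39, -0.50 and -0.37 at 6 weeks. Mdh2 had -0.51, -0.84, -1.51 and -0.94 at 11 months, against -1.01, -0.50, 0.29 and 0.43 at 6 weeks. Both genes overlapped between the ages in these array values, which are not corrected for dye. The limma dye coefficient of Mdh2 was 0.42 (adjusted p = 0.0536). Fh1 fell by 1.40 ± 0.15 at 11 months (adjusted p = 0.000381) and by 0.55 ± 0.15 at 6 weeks (adjusted p = 0.0447), and the second call ended without any 1 younger array or without older array 1 or 2 (adjusted p = 0.0625 to 0.188). Mdh2 fell by 0.95 ± 0.14 at 11 months (adjusted p = 0.00151) and had -0.20 ± 0.14 at 6 weeks (adjusted p = 0.368).

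No single array ended the call of any cycle enzyme at 11 months, and median centring ended that of Suclg2 alone. The 6-week calls of cycle enzymes were less stable. Without younger array 1, 3 or 4 the count of 4 became 0, without younger array 2 or older array 1 or 2 it became 2, and without older array 3 or 4 it became 6 or 9. Under median centring 0 were called at 6 weeks and 14 of the 16 fitted values lay below 0. For the difference the count of 15 stayed at 15 without younger array 1 or older array 4. It became 6, 7 and 7 without younger arrays 2, 3 and 4, and 7, 6 and 8 without older arrays 1, 2 and 3.

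**Figure D2:**
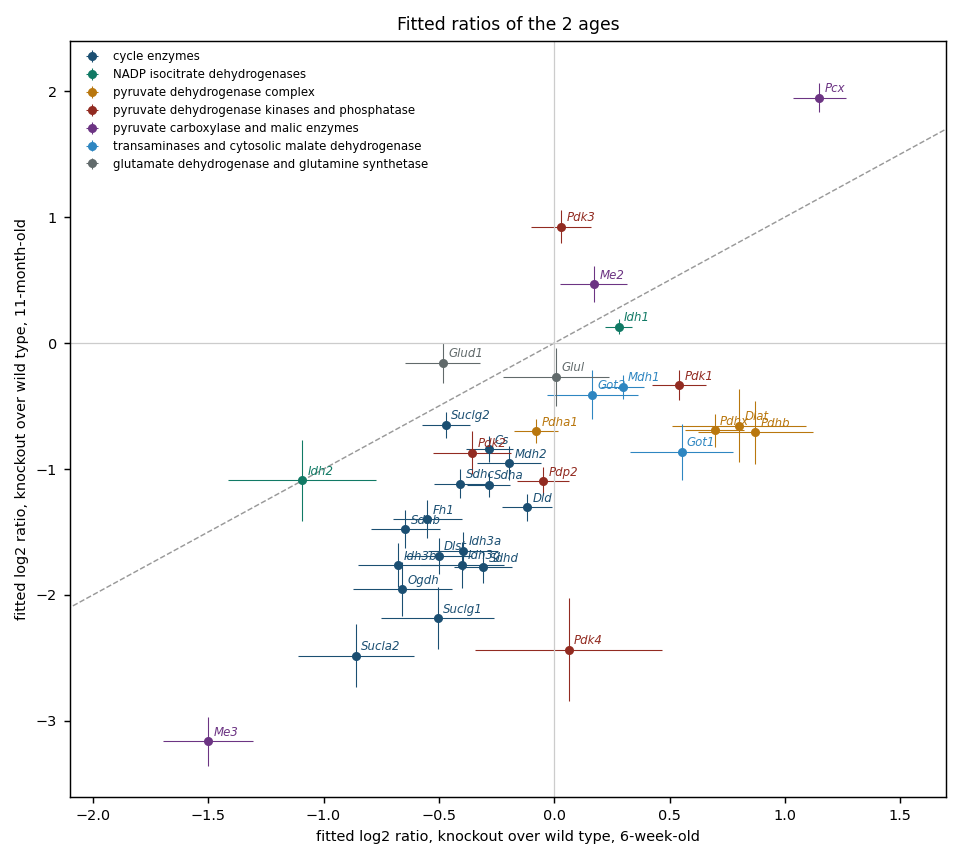
Fitted log2 ratio of knockout over wild type at 11 months (y axis) against that at 6 weeks (x axis) for the 35 genes, with SE bars and colours by role; the dashed line marks equal values. Of the 35, 22 lay below 0 at both ages, 9 below 0 at 11 months and above 0 at 6 weeks, and 4 above 0 at both.

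The markers of brown adipocytes moved with the cycle enzymes at 11 months. All 7 of 7 brown adipocyte markers were called lower (median -2.81), with Ucp1 at -3.07, -3.46, -6.21 and -3.46, and 0 of 7 at 6 weeks (median -0.20), with Ucp1 at 0.31, 0.40, -0.28 and 0.10. The summed marker signal was 65354 to 351820 in 11-month-old knockout channels, against 1222200 to 1663100 in 11-month-old wild-type channels. At 6 weeks it was 492850 to 827080 in knockout and 704580 to 991570 in wild-type channels. General adipocyte markers, by contrast, were called higher in 5 of 6 at both ages. In bulk tissue, fewer cells of a type and less RNA per cell cannot be told apart. Macrophage markers were called higher in 5 of 7 at 11 months, endothelial markers were called lower in 0 of 5 at 11 months and 3 of 5 at 6 weeks, and erythrocyte markers in 0 of 4 at either age. Of all genes, 16.8% were called lower and 17.9% higher at 11 months, and 7.01% lower and 9.18% higher at 6 weeks. The part of these lists in the falls of the cycle enzymes was not tested.

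Skeletal muscle, a mitochondria-rich tissue that lies beside brown fat depots, differed in marker signal between the channels of single arrays. Of its 19 markers 0 were called at 11 months or at 6 weeks, against 34.7% and 16.2% of all genes. But their median ratio was -0.47, -1.25, -0.29 and 1.71 on the 11-month-old arrays, against 0.04, -2.79, 2.50 and -3.33 on the 6-week-old arrays. Their summed signal was 111590 to 914240 in 11-month-old knockout channels and 130930 to 698500 in 11-month-old wild-type channels, and 25015 to 62802 in 6-week-old knockout channels and 18795 to 222860 in 6-week-old wild-type channels. On older array 4, whose knockout sample had the highest muscle signal, the median of the cycle enzymes was -1.07, against -1.44, -1.72 and -1.78 on older arrays 1 to 3, and the part of muscle in this was not tested. Without older array 4 and younger arrays 2 and 4, a set chosen after the data were seen that left in younger array 3, all 16 cycle enzymes were called lower at 11 months (median -1.76), 7 at 6 weeks (median -0.60) and 7 for the difference (median -1.13).

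**Figure D3:**
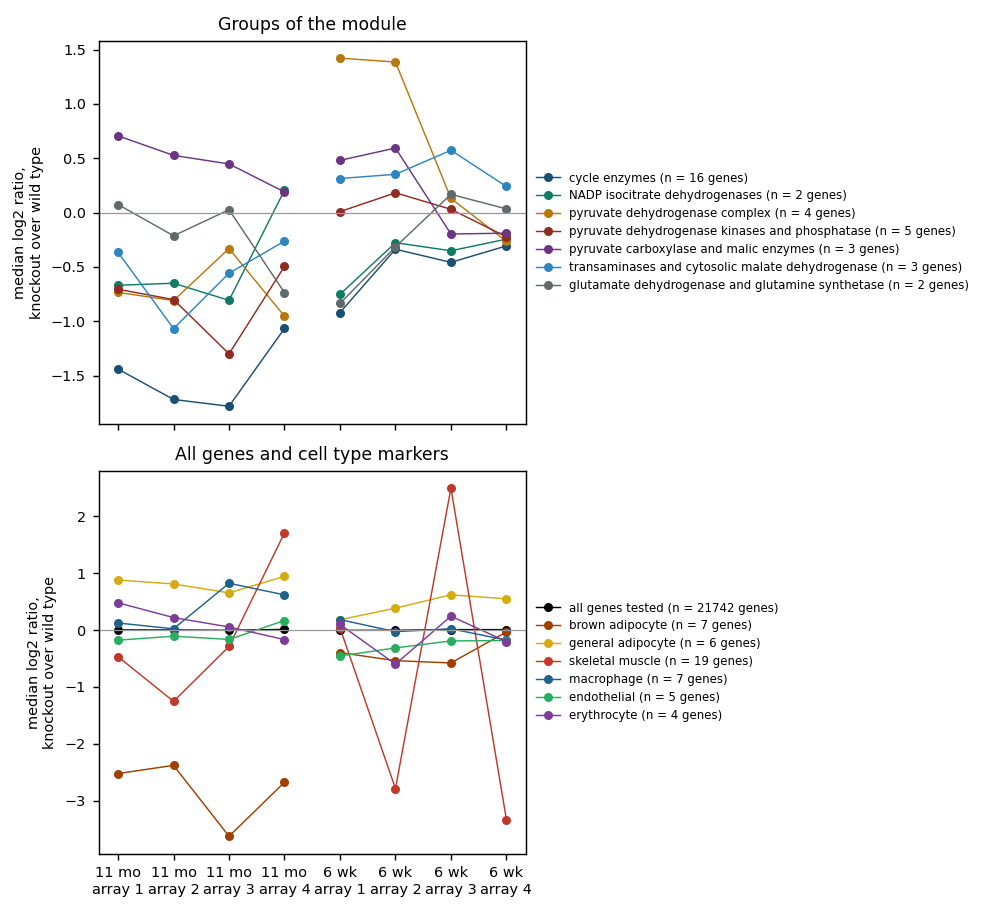
Median log2 ratio of knockout over wild type (y axis) on each array (x axis, 11 months left, 6 weeks right) for the 7 groups of the module (top) and for all genes and the cell type markers (bottom). The cycle enzymes lie between -1.78 and -1.07 at 11 months and between -0.92 and -0.31 at 6 weeks; the skeletal muscle markers range from -3.33 to 2.50 on the 6-week-old arrays.

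The NADP-dependent isocitrate dehydrogenases, which supply NADPH, did not follow one pattern. Idh2, the mitochondrial enzyme, had ratios of -1.26, -1.39, -1.88 and 0.17 at 11 months, against -1.82, -1.08, -0.78 and -0.69 at 6 weeks. Its fitted value was -1.09 ± 0.32 at both ages, called at 11 months (adjusted p = 0.0322) and not at 6 weeks (adjusted p = 0.0552). The difference was 0.00 ± 0.45 (adjusted p = 0.998). Older array 4, with the high muscle signal in the knockout channel, was the only one of 8 above 0. Younger array 3, with a median muscle marker ratio of 2.50, had Idh2 at -0.78. Its summed muscle signal in the knockout channel was 58448, against 914240 on older array 4, and the part of muscle was not tested. Without older array 4 Idh2 was called lower at both ages (-1.62 at 11 months, adjusted p = 0.000342, and -1.09 at 6 weeks, adjusted p = 0.00297). The 11-month call ended without younger array 2 or older array 1, 2 or 3 (adjusted p = 0.0509 to 0.134), and under median centring or with each age fitted alone (adjusted p up to 0.0772). Idh1, the cytosolic and peroxisomal enzyme, had -0.08, 0.09, 0.26 and 0.24 at 11 months, against 0.32, 0.53, 0.07 and 0.20 at 6 weeks. It was called higher at 6 weeks (0.28 ± 0.06, adjusted p = 0.0206) and had 0.13 ± 0.06 at 11 months (adjusted p = 0.128). The 6-week call ended without younger array 2, 3 or 4 (adjusted p = 0.0544 to 0.0828).

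Of the 4 genes of the pyruvate dehydrogenase complex, 2 were called lower at 11 months (median of the 4 fitted values -0.70), against 16.8% of all genes. At 6 weeks 1 was called higher (median 0.75), against 9.18%, while the difference was called lower for all 4, against 9.71%. The median on the 6-week-old arrays was 1.42 and 1.38 on arrays 1 and 2, against 0.13 and -0.26 on arrays 3 and 4. Pdhx, which anchors the Dld component in the complex, had ratios of -0.62, -0.78, -0.54 and -0.83 at 11 months, against 1.12, 1.17, 0.27 and 0.22 at 6 weeks. It was the 1 gene of the 35 called in opposite directions, -0.69 ± 0.13 at 11 months (adjusted p = 0.00478) and 0.70 ± 0.13 at 6 weeks (adjusted p = 0.0135), with a difference of -1.39 ± 0.18 (adjusted p = 0.00362). The 6-week call ended without younger array 1 or 2 (adjusted p = 0.0604 to 0.0702), and median centring ended all 3 calls (adjusted p up to 0.146).

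Pdha1, a catalytic E1 subunit, had ratios of -0.85, -0.99, -0.19 and -0.76 at 11 months, against -0.01, 0.27, -0.24 and -0.34 at 6 weeks. Pdhb, the other E1 subunit, had -0.96, -0.84, 0.17 and -1.21 at 11 months, against 1.73, 1.60, 0.39 and -0.22 at 6 weeks. Dlat, the acetyltransferase core, had -0.50, -0.58, -0.47 and -1.07 at 11 months, against 1.78, 1.75, -0.01 and -0.31 at 6 weeks. Pdhb and Dlat were thus high at 6 weeks on arrays 1 and 2 and near 0 on arrays 3 and 4. The knockout sample carried Cy3 on arrays 1 and 2 and Cy5 on arrays 3 and 4. In the channels, the knockout signal of Dlat was 13.79, 13.96, 13.82 and 13.58 on the normalized log2 scale at 6 weeks, while that of wild type was 12.01, 12.21, 13.83 and 13.88. So the wild-type channels of arrays 1 and 2 stood apart, and dye and sample cannot be told apart there.

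Pdha1 fell by 0.70 ± 0.10 at 11 months (adjusted p = 0.00114) and had -0.08 ± 0.10 at 6 weeks (adjusted p = 0.607). Pdhb had -0.71 ± 0.25 at 11 months (adjusted p = 0.0618) and 0.87 ± 0.25 at 6 weeks (adjusted p = 0.0523), and Dlat -0.66 ± 0.29 (adjusted p = 0.12) and 0.80 ± 0.29 (adjusted p = 0.0995). The other kept Pdhb probes had the same directions and were called at both ages, with -0.78 ± 0.19 and -0.35 ± 0.07 at 11 months, against 0.72 ± 0.19 and 0.42 ± 0.07 at 6 weeks. The called differences were -0.62 ± 0.14 for Pdha1, -1.58 ± 0.35 for Pdhb and -1.46 ± 0.41 for Dlat. That of Dlat ended without any 1 array but younger array 4 (adjusted p = 0.0505 to 0.124), that of Pdhb without younger array 1, 2 or 3 (0.0528 to 0.0673), and that of Pdha1 without younger array 2 or 3 or older array 2 (0.0542 to 0.0638).

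The pyruvate dehydrogenase kinases, which inactivate the complex by phosphorylation, moved in different directions at 11 months. Pdk4, a fasting-responsive kinase, had ratios of -2.77, -2.23, -3.85 and -0.89 at 11 months, against -0.28, 0.52, 0.31 and -0.30 at 6 weeks. Pdk4 fell by 2.43 ± 0.41 at 11 months (adjusted p = 0.00293), on all 4 arrays and least on array 4. At 6 weeks it had 0.06 ± 0.41 (adjusted p = 0.935). The difference of -2.50 ± 0.57 (adjusted p = 0.0242) had the largest size among the 35, and it ended without younger array 2, 3 or 4 or older array 1 or 2 (adjusted p = 0.0503 to 0.0728).

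Pdk3 had ratios of 1.32, 1.14, 0.35 and 0.88 at 11 months, against 0.11, 0.09, 0.03 and -0.10 at 6 weeks. It rose by 0.92 ± 0.13 at 11 months (1.90-fold, adjusted p = 0.0013), and its difference of 0.89 ± 0.18 (adjusted p = 0.0161) ended without older array 2 (adjusted p = 0.0545). The Pdk3 probe was dim, with a mean log2 intensity of 7.76, against 6.82 for an Me3 probe left out as not well above background. Over the 21 alternatives the 11-month value of Pdk3 lay between 0.812 and 1.985. Pdk2 had -0.71, -0.80, -1.48 and -0.50 at 11 months, against -0.87, -0.05, -0.25 and -0.24 at 6 weeks. Pdk2 fell by 0.87 ± 0.17 at 11 months (adjusted p = 0.00585), its ages overlapped, and median centring ended the call (adjusted p = 0.0799). Pdk1 had -0.32, -0.17, -0.38 and -0.47 at 11 months, against 0.89, 0.58, 0.08 and 0.61 at 6 weeks. Its ages did not overlap. Pdk1 was called higher at 6 weeks (0.54 ± 0.12, adjusted p = 0.0228) and had -0.33 ± 0.12 at 11 months (adjusted p = 0.0625), and the 6-week call ended without younger array 1, 2 or 4 (adjusted p = 0.0768 to 0.1). The phosphatase Pdp2, which reactivates the complex, had -1.41, -0.83, -1.30 and -0.86 at 11 months, against 0.01, 0.18, -0.16 and -0.22 at 6 weeks. Pdp2 fell 2.14-fold at 11 months (adjusted p = 0.000291) with no overlap between the ages. Its second probe, dim and well above background in 14 of 16 channel measurements, gave -0.21 ± 0.05 (adjusted p = 0.0183).

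Pyruvate carboxylase and the malic enzymes link pyruvate with oxaloacetate and malate, and they held both the highest and the lowest fitted value among the 35 at 11 months. Pcx had normalized log2 signals of 17.14, 17.21, 17.74 and 17.04 in 11-month-old knockout channels, against 15.03, 15.15, 15.60 and 15.56 in the wild-type channels. Its ratios were 2.12, 2.06, 2.14 and 1.48 at 11 months, against 1.27, 1.18, 1.19 and 0.96 at 6 weeks. Every array was high at both ages, and every older array exceeded every 6-week-old one. Pcx rose by 1.95 ± 0.12 at 11 months (3.86-fold, adjusted p = 3.81e-05) and by 1.15 ± 0.12 at 6 weeks (2.22-fold, adjusted p = 0.00179), calls that held in all 21 alternatives. It was the 1 member called higher at both ages. The difference of 0.80 ± 0.16 (adjusted p = 0.016) ended without older array 2 (adjusted p = 0.0541) and under median centring (adjusted p = 0.355).

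Me3, the mitochondrial NADP-dependent malic enzyme, had normalized log2 signals of 10.29, 10.42, 9.59 and 10.65 in 11-month-old knockout channels, against 13.86, 13.70, 13.09 and 12.94 in the wild-type channels. Its ratios were -3.57, -3.28, -3.50 and -2.29 at 11 months, against -1.68, -1.03, -1.43 and -1.86 at 6 weeks. All 8 arrays were low and the ages did not overlap. Me3 fell by 3.16 ± 0.20 at 11 months (8.94-fold, adjusted p = 4.36e-05) and by 1.50 ± 0.20 at 6 weeks (2.83-fold, adjusted p = 0.00393), and the difference was -1.66 ± 0.28 (adjusted p = 0.00766). The 6-week call ended with the scanner software's own log ratio (adjusted p = 0.0764), and that of the difference under median centring (adjusted p = 0.0597). The second probe printed above gave -3.11 and -1.54, and another Me3 probe was well above background in 0 of 16 channel measurements and was left out. Me2, the mitochondrial NAD-dependent malic enzyme, had 0.71, 0.53, 0.45 and 0.19 at 11 months, against 0.48, 0.59, -0.20 and -0.19 at 6 weeks. It was called higher at 11 months (0.47 ± 0.15, adjusted p = 0.0395), a call that ended without older array 1, 2 or 3 (adjusted p = 0.0709 to 0.175).

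**Figure D4:**
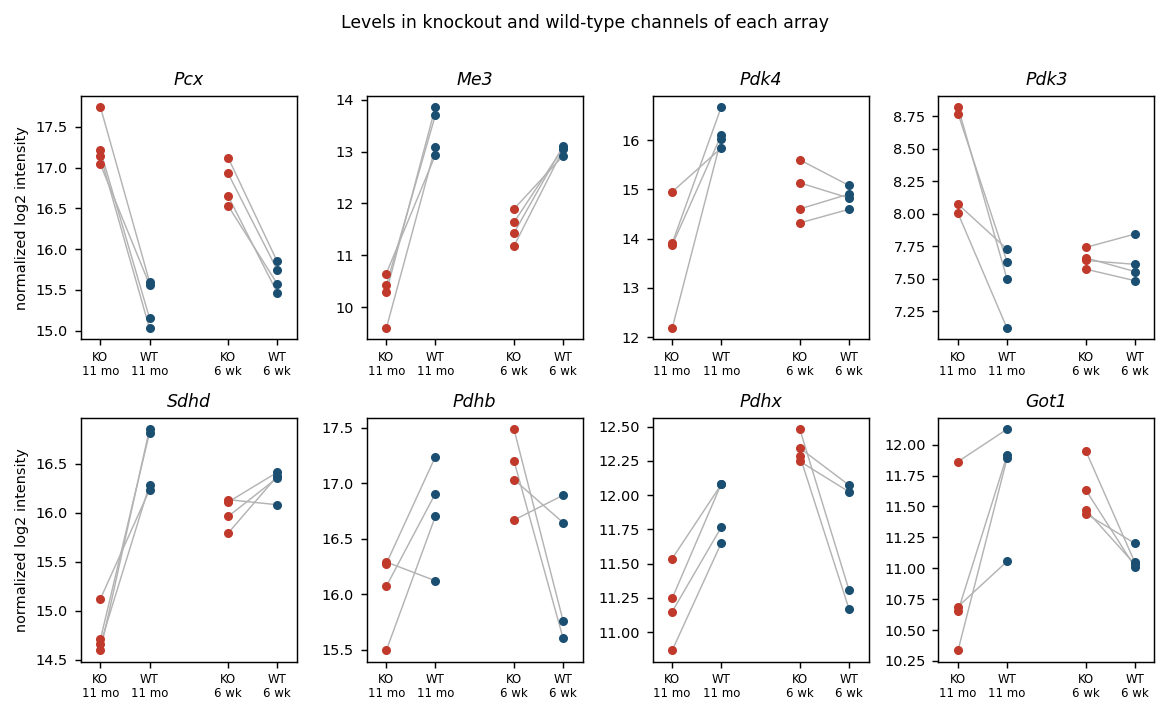
Normalized log2 intensity (y axis, its range set per gene) in the knockout and wild-type channels of each array (x axis) for 8 genes; grey lines join the channels of 1 array. Pcx is higher in knockout on all 8 arrays and Me3 lower on all 8, and the wild-type signals of Pdhb and Pdhx are lower on 2 of the 6-week-old arrays than on the other 2.

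The aspartate transaminases and malate dehydrogenases form the malate-aspartate shuttle, which carries reducing equivalents into mitochondria. Got1, the cytosolic transaminase, had ratios of -0.37, -1.26, -1.56 and -0.26 at 11 months, against 0.90, 0.44, 0.62 and 0.24 at 6 weeks. Mdh1, the cytosolic malate dehydrogenase, had -0.22, -0.28, -0.26 and -0.62 at 11 months, against -0.17, 0.25, 0.57 and 0.54 at 6 weeks. Got2, the mitochondrial transaminase, had -0.65, -1.07, -0.56 and 0.64 at 11 months, against 0.31, 0.35, 0.29 and -0.30 at 6 weeks. Neither Got1 nor Mdh1 overlapped between the ages, and Got2 did. Got1 fell by 0.86 ± 0.22 at 11 months (adjusted p = 0.0199) and had 0.55 ± 0.22 at 6 weeks (adjusted p = 0.131), with a difference of -1.41 ± 0.32 (adjusted p = 0.0216). Mdh1 fell by 0.35 ± 0.09 at 11 months (adjusted p = 0.0234) and had 0.30 ± 0.09 at 6 weeks (adjusted p = 0.0686), with a difference of -0.64 ± 0.13 (adjusted p = 0.0164). The 11-month calls ended without older array 2 or 3 for Got1 (adjusted p = 0.0617 to 0.0998) and without older array 1, 2 or 4 for Mdh1 (adjusted p = 0.0895 to 0.108). They also ended under median centring and with each age fitted alone for Got1 (adjusted p up to 0.161), and under median centring, with no dye coefficient and without older array 4 and younger arrays 2 and 4 for Mdh1 (adjusted p up to 0.2). The differences ended without younger array 1, 2 or 3 or older array 2 for Got1 (adjusted p = 0.0529 to 0.0681) and without younger array 2 or older array 2 for Mdh1 (adjusted p = 0.0529 to 0.056). Got2 was not called, with -0.41 ± 0.20 at 11 months (adjusted p = 0.15) and 0.17 ± 0.20 at 6 weeks (adjusted p = 0.606), but without older array 4 it was called lower at 11 months (-0.70, adjusted p = 0.00751) and for the difference (-0.87, adjusted p = 0.0182).

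Glutamate dehydrogenase (Glud1), which turns glutamate into 2-oxoglutarate, and glutamine synthetase (Glul) were not called in any of the 3 comparisons. Glud1 had a fitted value of -0.16 ± 0.16 at 11 months and -0.48 ± 0.16 at 6 weeks (adjusted p = 0.491 and 0.0798). Its second probe was called lower at 6 weeks (-0.41 ± 0.09, adjusted p = 0.0238). On the 6-week-old arrays that probe had -0.99, -0.86, 0.18 and 0.02, and the probe standing for Glud1 had -1.21, -0.94, 0.13 and 0.10. Arrays 1 and 2 carried the knockout in Cy3 and arrays 3 and 4 in Cy5, so dye and sample cannot be told apart there. Glul had -0.27 ± 0.23 at 11 months and 0.01 ± 0.23 at 6 weeks, with older array 4 at -1.29 and the others between -0.18 and 0.20.

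**Figure D5:**
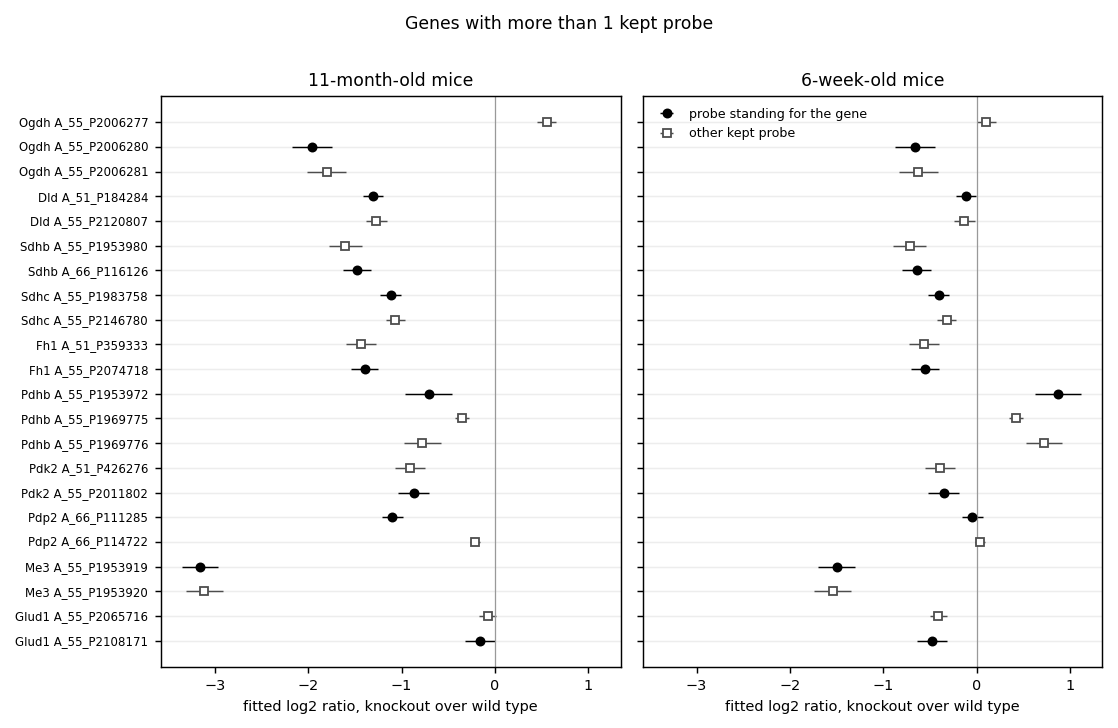
Fitted log2 ratio of knockout over wild type (x axis) with SE for each kept probe (y axis) of the 10 genes with more than 1, at 11 months (left) and 6 weeks (right). Filled points stand for the gene; the Ogdh probe A_55_P2006277 lies at 0.55 at 11 months, against -1.95 and -1.80 for the others.

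Of 42 other genes of the same pathway, 40 were measured. At 11 months 20 were called lower and 5 higher (median -0.21), against 16.8% and 17.9% of all genes. At 6 weeks 10 were called lower and 8 higher (median -0.08), against 7.01% and 9.18%. For the difference 13 were called lower and 6 higher (median -0.29), against 9.71% and 8.46%. The largest changes at 11 months were in Acss1, a mitochondrial acetyl-CoA synthetase (-2.90 ± 0.20), Gpt2, the mitochondrial alanine transaminase (2.69 ± 0.12), Slc25a10, the dicarboxylate carrier (2.44 ± 0.12), and Ldhb, a lactate dehydrogenase subunit (-2.37 ± 0.22), with adjusted p between 1.44e-05 and 0.000183. At 6 weeks they were in Acly, the ATP citrate lyase that makes cytosolic acetyl-CoA (2.39 ± 0.45, adjusted p = 0.0142), the cytosolic malic enzyme Me1 (2.28 ± 0.45, adjusted p = 0.0166), Slc25a10 (1.75 ± 0.12, adjusted p = 0.00062) and the citrate carrier Slc25a1 (1.36 ± 0.38, adjusted p = 0.0493). On the 6-week-old arrays Acly had 3.35, 3.02, 1.74 and 1.47, and Me1 3.40, 2.96, 1.33 and 1.45. Slc25a10 had 2.03, 1.91, 1.45 and 1.59, and Slc25a1 2.64, 1.95, 0.60 and 0.24. Arrays 1 and 2 carried the knockout in Cy3 and arrays 3 and 4 in Cy5, so dye and sample cannot be told apart there. For the difference, those given here are Gpt2 (2.26), Acss1 (-1.92) and Ldhb (-1.69).

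RefSeq promoters (mouse build GRCm38.p6, from 250 bases before to 50 after the start) were found for 32 of the 35 genes. Those printed here belong to 2 cycle enzymes that fell at 11 months and hold motif matches, Sdhd and Dlst, and to the genes with the lowest and the highest fitted value at 11 months, Me3 and Pcx, Pcx with the first of 2 listed starts. Each is on its gene's strand, 5′ to 3′, and capitals mark matches on either strand to AAGGTCA, the core site of estrogen-related receptors, or to CCGGAAG, an ETS factor site. The 2 motifs do not overlap in these promoters.
Sdhd promoter: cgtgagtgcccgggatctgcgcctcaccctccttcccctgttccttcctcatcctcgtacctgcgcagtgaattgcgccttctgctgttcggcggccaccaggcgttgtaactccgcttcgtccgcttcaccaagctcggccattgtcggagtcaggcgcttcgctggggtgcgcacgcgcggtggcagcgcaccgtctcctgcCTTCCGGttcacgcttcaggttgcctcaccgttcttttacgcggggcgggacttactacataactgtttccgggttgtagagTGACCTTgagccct
Dlst promoter: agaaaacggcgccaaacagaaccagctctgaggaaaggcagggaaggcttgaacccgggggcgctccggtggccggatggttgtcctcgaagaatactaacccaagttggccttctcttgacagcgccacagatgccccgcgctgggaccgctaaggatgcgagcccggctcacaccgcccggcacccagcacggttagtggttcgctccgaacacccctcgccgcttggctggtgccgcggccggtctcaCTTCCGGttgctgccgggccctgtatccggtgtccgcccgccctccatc
Me3 promoter: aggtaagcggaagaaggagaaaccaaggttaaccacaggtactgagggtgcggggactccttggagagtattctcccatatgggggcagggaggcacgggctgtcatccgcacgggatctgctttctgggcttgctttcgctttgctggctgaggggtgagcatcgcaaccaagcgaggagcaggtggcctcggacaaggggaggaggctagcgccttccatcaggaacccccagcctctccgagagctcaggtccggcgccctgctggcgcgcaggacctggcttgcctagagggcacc
Pcx promoter: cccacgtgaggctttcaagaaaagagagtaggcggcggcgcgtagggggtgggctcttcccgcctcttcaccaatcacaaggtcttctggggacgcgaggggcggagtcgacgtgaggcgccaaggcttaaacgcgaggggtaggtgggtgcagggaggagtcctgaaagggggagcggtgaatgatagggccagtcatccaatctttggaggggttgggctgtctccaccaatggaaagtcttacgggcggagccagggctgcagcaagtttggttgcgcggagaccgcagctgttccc
They lie at chr9:50603800-50604099 (minus strand), chr12:85110583-85110882 (plus strand), chr7:89632568-89632867 (plus strand) and chr19:4510222-4510521 (plus strand). The Sdhd promoter held 1 match to each motif, the Dlst promoter 1 to CCGGAAG, and those of Me3 and Pcx 0. AAGGTCA was found in 3 of the 41 member promoters (Got1, Ogdh and Sdhd), against 4.72% of all 32851 promoters of this length, and CCGGAAG in 6 (Dlst, Glud1, Idh3b, Idh3g, Sdhb and Sdhd), against 8.86%. These matches describe letters in the windows only.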

How the data were processed

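The 8 arrays were 2-colour Agilent arrays of 4 knockout and 4 wild-type brown fat samples per age. Per the file headers, each deposited scanner table gives the mean foreground and median local background intensity of every spot in both channels, read with Agilent Feature Extraction 10.10.1.1 (11 months) and 10.5.1.1 (6 weeks), on a design annotated to mm9. Each deposited table also gives the software's own log10 ratio (Cy5 over Cy3, corrected for background and dye) and flags. The deposited value table holds log2 ratios, with array medians between -0.05 and 0.084. Limma is named in the submitters' processing notes, but the sources used here do not give its settings, so the centring of that table is unknown. Set against the scanner values, its sign followed the dye of the knockout sample (r in size 0.885 to 0.978), so it was read as knockout over wild type and used as an alternative.

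Here intensities were background-corrected with normexp (offset 50) and normalized within arrays by loess in limma 3.58.1 (R 4.3.3). Between 131 and 247 spots per array flagged as non-uniform or outlying were left out. Probes were kept if at least 4 of their 16 channel measurements were well above background and 3 or more arrays of each age had a value (26853 of 39429), and the brightest stood for its gene. A dim-probe filter passed 47 of the 48 probes of the 35 genes and at least 1 per gene. Of 21742 genes, 14810 took a RefSeq symbol through the array's accession and 6932 kept the array's name. The model had a coefficient per age and a shared dye coefficient (5 residual degrees of freedom). The model was tested on simulated data.

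Deviations from the fit had r = 0.459, 0.441, 0.167 and 0.316 between samples of the same replicate number (numbers 1 to 4, across genes). Same-numbered arrays carried the knockout in opposite dyes at the ages. Fitting the shared dye coefficient by itself ties deviations across the ages, so these r values cannot show that such samples varied together. The number was tried as a block across the ages. Arrays of different numbers had r between -0.479 and 0.444, and 11-month-old array 4 correlated more with 6-week-old array 3 (0.444) than with its own number. The numbers come from the labels, where they name replicates within an age. Arrays of one age correlated at 0.678 to 0.885 at 11 months and 0.481 to 0.676 at 6 weeks. The members, the lists, the tests and the rule for named genes (every member, values on every array for those called, and up to 4 other pathway genes with the largest change per comparison) were chosen with earlier results of these data known. A result that this rule names is not reported here. Alternatives changed the normalization, the source of the ratios, the filters, the probe rule, the dye term and the arrays used.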

Additional observations from a re-analysis of the deposited data

Results flagged for a closer look

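In 6 of 70 groups of 4 arrays tested, 1 array stood far from the other 3, where chance flags about 1 in 20 groups. On 11-month-old array 4, Dlst was at -1.17 (others -1.91 to -1.81), Pcx at 1.48 (others 2.06 to 2.14) and Mdh1 at -0.62 (others -0.28 to -0.22). On 6-week-old array 2, Dlst was at 0.052 (others -0.72 to -0.65) and Sdhc at 0.018 (others -0.57 to -0.52), and on 6-week-old array 4 Got2 was at -0.30 (others 0.29 to 0.35). The skeletal muscle markers differed between the channels on these 3 arrays as well. They also differed on 6-week-old array 3 (median ratio 2.50) and 11-month-old array 2 (-1.25), which held no flagged value. The summed muscle signal of 6-week-old array 3 was 58448 in knockout and 18795 in wild type, against 914240 and 283080 on 11-month-old array 4. The part of muscle was not tested.

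The knockout ratio differed between the ages for 27 of the 35 members by the limma test of the difference (11 months minus 6 weeks), against 18.2% of all genes. Of these 27 calls, 26 ended in some alternative setting. Among the cycle enzymes the differences were -0.56 for Cs, -1.25 for Idh3a, -1.09 for Idh3b, -1.36 for Idh3g, -1.30 for Ogdh, -1.19 for Dlst and -1.19 for Dld. They were -1.68 for Suclg1, -1.62 for Sucla2, -0.84 for Sdha, -0.83 for Sdhb, -0.71 for Sdhc, -1.47 for Sdhd, -0.85 for Fh1 and -0.76 for Mdh2. In the pyruvate dehydrogenase complex they were -0.62 for Pdha1, -1.58 for Pdhb, -1.46 for Dlat and -1.39 for Pdhx. Among its regulators they were -0.87 for Pdk1, 0.89 for Pdk3, -2.50 for Pdk4 and -1.05 for Pdp2. The difference was 0.80 for Pcx, -1.66 for Me3, -1.41 for Got1 and -0.64 for Mdh1.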

How the results depend on the processing

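No call changed direction under any of 21 alternatives per comparison. At 11 months the count of 28 members called lay between 24 and 29 without single arrays, and between 22 and 31 under the other alternatives. Of the 28 calls, 21 held in every alternative and 7 ended in some. At 6 weeks the count of 9 became 3 with the scanner software's log ratio, 2 under median centring, 14 under the strict filter on dim probes, 16 with a dye coefficient per age and 16 with each age fitted alone. Without single arrays it ranged from 4 to 16, and 1 of the 9 calls held in every alternative (Pcx). For the difference between ages the count of 27 became 3 under median centring and 12 without 11-month-old array 4 and 6-week-old arrays 2 and 4, a setting added after the data were seen. It kept 6-week-old array 3, whose median muscle ratio of 2.50 was larger in size than the 1.71 of 11-month-old array 4. The summed muscle signal in the knockout channel was lower on that younger array, however, at 58448 against 914240. Without single arrays the count for the difference ranged from 11 to 27, and 1 of the 27 calls held in every alternative (Sdhd). The causes were not tested. With the replicate block 27 members were called for the difference, and the block changed no member's call.

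Over all genes, median centring called 4912 at 11 months (3480 higher, 1432 lower), against 7544 (3897 higher, 3647 lower) with loess. At 6 weeks it called 948 (664 higher, 284 lower), against 3520 (1995 higher, 1525 lower), and for the difference 552 (329 higher, 223 lower), against 3952 (1840 higher, 2112 lower). The scanner's ratio called 2278 genes at 6 weeks, and the fit with no dye coefficient called 2518 for the difference. Without 11-month-old array 2, 5027 genes were called at 11 months. Without single arrays the counts ranged from 1238 to 4278 at 6 weeks and from 2118 to 3225 for the difference. Without those 3 arrays they were 4871 at 11 months, 801 at 6 weeks and 689 for the difference. Age and batch cannot be told apart. Every member had a probe well above background, but that of Pdk3 was dim (mean log2 intensity 7.76), so signal near background may limit its ratios.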
